A study of Mus musculus with 12 samples.

Results

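In GSC-H cells, a line of mouse glioma stem cells, the comparison described here is that of hypoxia with normoxia while both groups were exposed to doranidazole. Doranidazole is a 2-nitroimidazole, a class of drugs whose reduction inside cells depends on the oxygen level. The series holds 12 arrays in 4 groups of 3, and 6 of them, 3 cultured at 1% O2 and 3 at 21% O2, all with doranidazole at 3 mM for 24 h, make up the comparison. The remaining 6 arrays received phosphate-buffered saline (PBS) at the same oxygen levels for the same time and served to measure the oxygen response without the drug. The cells of all groups came from neural stem/progenitor cells that lack Ink4a/Arf and overexpress H-Ras V12, and the study took them from late-stage tumors grown in syngeneic mice, so that they represent a single cell line. The oxygen levels are those of the labels. The study describes the arrays as biologically independent samples of 1 experiment, so the p-values below rest on the spread among samples within that experiment. Each array reports a log2 signal for 22206 probe sets, of which 19572 carry 1 gene symbol (19505 genes) and enter the description by name.

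In cells with little oxygen, the prolyl hydroxylases that mark hypoxia-inducible factor (HIF) for degradation slow down, and HIF switches on genes for glucose uptake, glycolysis, blood vessel growth and pH control. The reduction of a nitroimidazole inside a cell yields reactive products, and oxygen turns the first radical back into the parent drug. Cells that meet electrophiles or oxidants activate the transcription factor NRF2, which drives glutathione and thioredoxin enzymes, and unfolded proteins activate heat shock factor 1 (HSF1), which drives chaperones.

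With doranidazole, 3002 of 22206 probe sets were higher in hypoxia (13.5%) and 3654 were lower (16.5%) in limma at an adjusted p under 0.05. Of the probe sets with a symbol, 2532 were higher (12.9%) and 3408 lower (17.4%). Changes of more than 4-fold were found in 329 probe sets that were higher and 871 that were lower in hypoxia. The number of higher probe sets was 1942 without normoxia doranidazole replicate 2. With PBS, 324 probe sets were higher (1.46%) and 115 lower (0.518%), with 3044 at an unadjusted p under 0.05. Leaving out an array moved these 439 probe sets (1.98%) to 151 for replicate 1 and 151 for replicate 2 of hypoxia with PBS and to 1432 for replicate 3, and to 212, 243 and 248 for the 3 replicates of normoxia with PBS. The oxygen response itself differed between doranidazole and PBS for 3003 probe sets, 1115 of them rising more or falling less under the drug (5.02%) and 1888 rising less or falling more (8.5%). In this text a gene is called higher or lower in hypoxia only where it passed this test with doranidazole, unless PBS is named, and a log2 difference is hypoxia minus normoxia.

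The arrays of hypoxia with doranidazole stood apart in the width of their signal distribution, which touches every count given below. The SD of the log2 signal over all probe sets was 3.51, 3.54 and 3.67 on these 3 arrays and lay between 3.72 and 3.81 on the other 9. Their 75th percentile was 8.60, 8.74 and 9.02, against 9.09 to 9.27 on the others, and their median was 4.75 to 4.88, against 4.65 to 4.73. Calls followed the brightness of the probe sets. In the dim tercile of probe sets by mean signal 9.02% were higher and 0.527% lower in hypoxia, in the middle tercile 17% and 15.1%, and in the bright tercile 14.6% and 33.7%. The median log2 difference was 0.19 in the dim tercile, 0.16 in the middle tercile, -0.31 in the bright tercile and 0.10 over all probe sets. It was 0.02 over all probe sets after quantile normalization and -0.03 once all arrays had been shifted to 1 median (array medians set equal), and higher calls then made up 51.6% and 33.4% of all calls, against 45.1%. Lists of bright genes are therefore given beside the values of the bright tercile. The part of the narrower distribution in the results was not tested, and fewer cells of a kind and less RNA per cell cannot be told apart in these data.

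**Figure D1:**
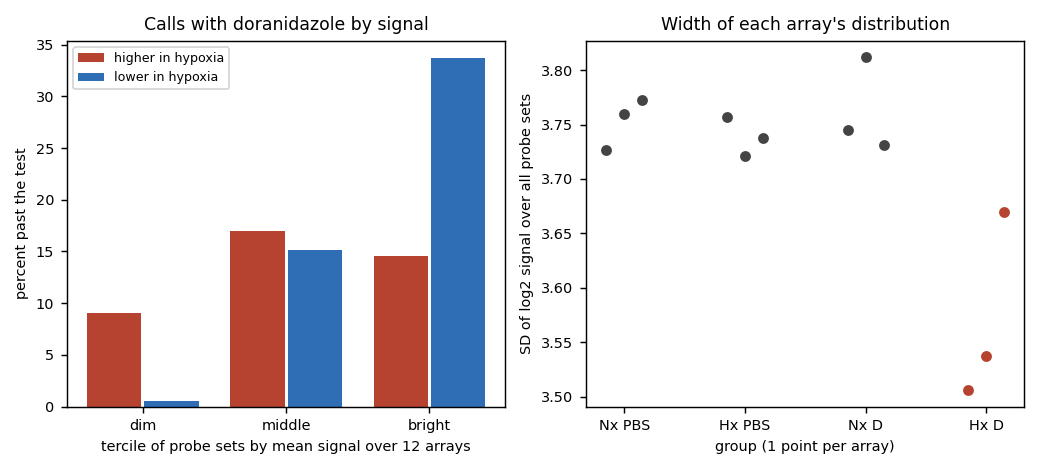
The left panel plots the percent of probe sets past the test (vertical axis) that were higher or lower in hypoxia with doranidazole, for terciles of the probe sets by mean signal, and the right panel plots the SD of the log2 signal over all probe sets for each array of the 4 groups (Nx, normoxia; Hx, hypoxia; D, doranidazole). Lower calls rise from 0.527% in the dim tercile to 33.7% in the bright tercile, and the 3 arrays of hypoxia with doranidazole lie below the other 9.

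Cdkn2a, the gene of the Ink4a/Arf locus that the cells lack, had a log2 signal between 1.94 and 2.49 on all 12 arrays, near the lowest signals measured. The neural stem cell marker Nes had signals of 13.10, 12.76 and 13.66 in normoxia and 13.78, 13.54 and 13.95 in hypoxia with doranidazole, and the mean signal of Sox2 was 14.44 in normoxia. Defining markers of other cell types were mostly dim. Brighter ones, by mean signal in normoxia and hypoxia with doranidazole, were Gja1 (15.27 and 15.55), Col3a1 (11.59 and 7.56), Tubb3 (9.94 and 10.45), Cnp (9.67 and 6.55) and Flt1 (8.84 and 7.00). The mean log2 signal of a marker list ranged from 3.45 to 3.66 in normoxia and from 3.68 to 3.83 in hypoxia for 8 microglia and macrophage genes, and from 3.94 to 4.16 and 4.08 to 4.19 for 8 endothelial genes. Itgam was the only one of the 8 microglia and macrophage genes that passed, and it was higher. Of the endothelial genes Pecam1 was higher and Flt1, the VEGF receptor gene that is also a HIF target, lower by 3.58-fold. Signals of 8 pericyte and fibroblast genes averaged 5.01 to 5.42 in normoxia and 4.38 to 4.52 in hypoxia, with Pdgfrb and Col3a1 lower and Col1a1 higher, and of 8 neuron genes Map2, Dcx and Slc17a7 were higher and none lower. Of 7 astrocyte genes, with averages of 5.44 to 5.65 and 5.60 to 5.90, Gfap and Slc1a2 were higher and Aqp4 lower. The averages of 6 oligodendrocyte, 5 T cell and 1 erythroid gene lay between 3.34 and 4.13, with Cnp lower and Cd4 higher. Over all probe sets 13.5% were higher and 16.5% lower, and in the dim tercile 9.02% and 0.527%. Mean signals stayed low for Itgam (2.95 in normoxia and 3.70 in hypoxia), Dcx (3.15 and 3.84), Slc17a7 (3.07 and 3.64) and Gfap (3.26 and 3.75). The part of other cell types in the results below was not tested.

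The canonical HIF response to low oxygen was present under doranidazole but uneven. Of 38 HIF target genes outside glycolysis, 20 were higher in hypoxia and none was lower (52.6%, against 13.5% of all probe sets; median log2 difference 1.54, against 0.10), and 27 of the 38 lay in the bright tercile. With PBS, 24 were higher and none lower (median 3.33). The response was smaller under doranidazole for 16 of them and larger for none. In 8 of the HIF-regulated genes described here, Adm, Ndrg1, Ier3, Vegfa, Kdm3a, Jmjd6, Slc2a1 and Bnip3, the difference of response did not pass with all arrays. Of these, only Adm, Vegfa, Slc2a1 and Bnip3 had it recomputed in other settings. It passed in 1 of them for Adm, in 8 for Bnip3 and in none for Vegfa and Slc2a1.

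Adm, which encodes the vasodilator peptide adrenomedullin, and Ndrg1, a stress-responsive gene of cell differentiation, were among them. The log2 signal of Adm was 8.36, 7.74 and 8.00 in normoxia and 13.74, 12.79 and 12.94 in hypoxia with doranidazole, 34.9-fold higher (log2 difference 5.12, SE 0.56, adjusted p = 2.72e-05, limma). With PBS it was 10.57, 8.13 and 7.80 in normoxia and 15.13, 15.32 and 14.61 in hypoxia, a log2 difference of 6.19. The responses with and without the drug differed by -1.06 (95% interval -2.77 to 0.65), which did not pass, but without normoxia PBS replicate 1, the highest of its group, the difference was -1.93 and passed (adjusted p = 0.0133). Ndrg1 rose from 4.76, 8.15 and 4.87 to 12.18, 12.33 and 12.52, 85.2-fold with a large error (log2 SE 1.28, adjusted p = 0.00228), with normoxia replicate 2 high. With PBS it went from 9.27, 9.83 and 4.51 to 13.94, 15.22 and 11.78. Its responses differed by 0.64 with a wide 95% interval (-3.27 to 4.55), so a large change of the response is not excluded. Adm and Ndrg1 were among the 12 genes with the largest rise, which were taken only if their groups did not overlap. Such groups were found in this direction for 21.3% of all probe sets, so nothing is read from them. The histone demethylase gene Kdm3a had nearly equal responses, 2.76 (SE 0.25) with doranidazole and 2.66 with PBS, and so did Jmjd6, which encodes a lysyl hydroxylase, with 2.56 and 2.47. The 95% intervals of their differences of response ran from -0.68 to 0.88 and from -0.68 to 0.86. For Vegfa, the gene of the main vessel growth factor, signals were 11.32, 13.46 and 11.13 in normoxia and 14.47, 14.33 and 13.82 in hypoxia. Its log2 difference of 2.24 (SE 0.70, adjusted p = 0.0291) was close to the 2.38 measured with PBS, which did not pass (adjusted p = 0.113). Vegfa too was high in normoxia doranidazole replicate 2, and it lost its call without normoxia doranidazole replicate 1 or 3 or hypoxia doranidazole replicate 1 or 2 (adjusted p of up to 0.312 over all settings).

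Car9 lost most of its response. This gene encodes carbonic anhydrase IX, a membrane enzyme that controls pH outside hypoxic cells and a standard marker of hypoxia. Its signal with doranidazole was 5.42, 5.47 and 4.78 in normoxia and 6.88, 6.68 and 7.57 in hypoxia, 3.53-fold higher (log2 difference 1.82, SE 0.59, adjusted p = 0.0348). With PBS it was 7.13, 8.08 and 5.01 in normoxia and 14.96, 15.54 and 14.41 in hypoxia, 299.9-fold higher (log2 difference 8.23). All 3 hypoxic arrays with the drug lay within the range of the normoxic arrays with PBS. The difference of response was -6.41 on the log2 scale (SE 0.84, adjusted p = 0.000322). The rise under doranidazole lost its call without any single one of the 6 arrays with the drug (adjusted p of up to 0.11), whereas the difference of response kept it in all 22 settings in which it was fitted.

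Other targets kept part of the response. Ak4, a mitochondrial adenylate kinase gene, had signals of 4.10, 4.15 and 4.34 in normoxia and 7.97, 8.53 and 7.92 in hypoxia, with a log2 difference of 3.95 (SE 0.36) against 6.57 with PBS. Fam162a, which encodes a mitochondrial protein linked to cell death, had 2.41 against 4.20, with adjusted p = 0.0014 for the difference of response. Bnip3, a mitophagy receptor gene, had 3.08 against 5.94, and this difference missed the threshold (adjusted p = 0.0533) but passed in 8 of 22 settings, among them those without any single array of normoxia with PBS or without hypoxia doranidazole replicate 3. The prolyl hydroxylase genes Egln1 and Egln3, themselves HIF targets, were 2.94- and 3.58-fold higher with doranidazole, against 10.6- and 17.1-fold with PBS. Egln3 lost the call for the difference of response in 7 of 22 settings (adjusted p of up to 0.189), among them those without replicate 1 or 2 of normoxia with doranidazole, hypoxia with PBS or hypoxia with doranidazole. Rcor2, a cofactor of histone demethylase LSD1, did not pass under the drug, with signals of 9.09, 9.06 and 7.64 in normoxia and 8.06, 7.10 and 8.49 in hypoxia, whereas with PBS it went from 9.63, 7.90 and 8.88 to 12.52, 12.72 and 12.39. Stc1 (stanniocalcin 1) and the clock repressor gene Bhlhe40 had log2 differences of 0.13 and 0.12 under the drug, against 4.27 and 3.72 with PBS, and the differences of response passed (adjusted p = 0.00111 and 0.0027).

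**Figure D2:**
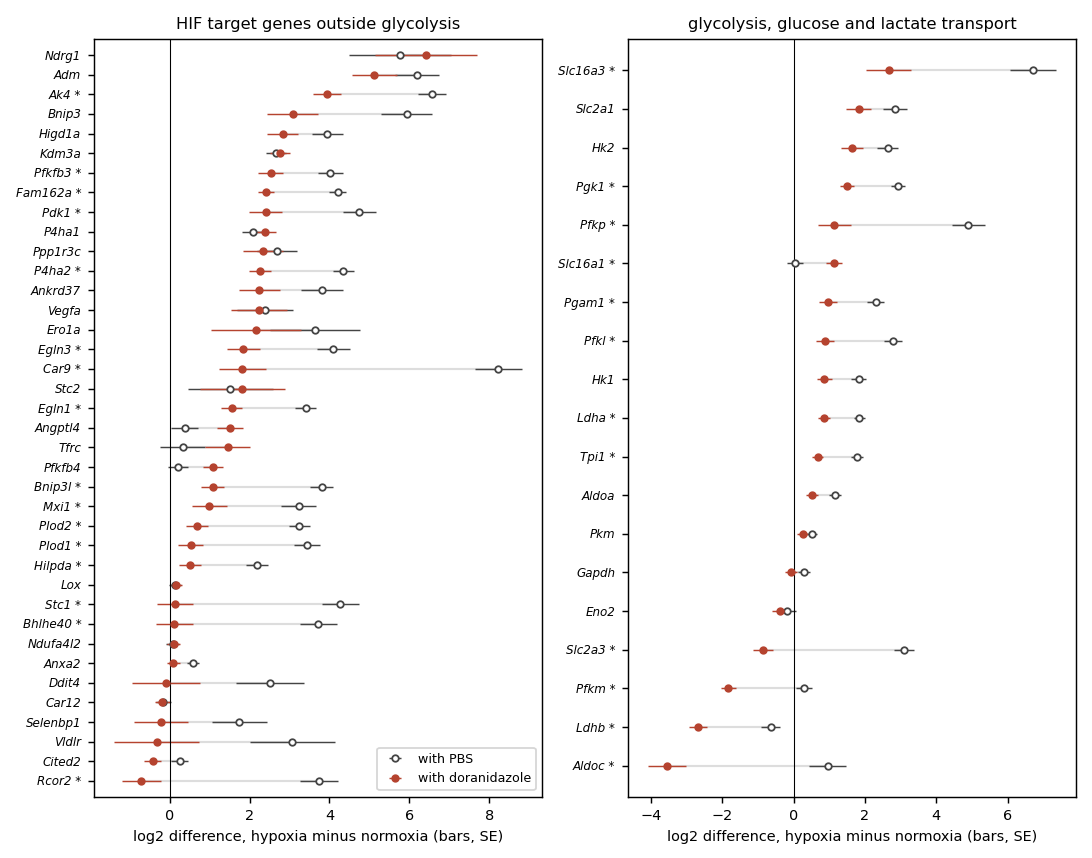
Log2 difference between hypoxia and normoxia (horizontal axis; bars, SE; 3 arrays per group) with PBS (open) and with doranidazole (filled) for each measured HIF target gene outside glycolysis (left) and each glycolytic gene (right); an asterisk marks genes whose response differed at an adjusted p under 0.05. The points of Kdm3a nearly coincide and those of Ndrg1 lie close together with large errors, whereas those of Car9, Rcor2 and Stc1 lie far apart.

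Promoters are shown by rank of the p for the difference of response in the HIF list, where Bnip3l and Plod2 were passed over for lack of a sequence. The promoters below are those of the pair of genes with the smallest p among those with a sequence in the table. They are RefSeq promoters (GRCm38.p6) from 250 bases before to 50 after the transcript start, both on the plus strand, and capitals mark ACGTG or GCGTG, the core of the HIF binding motif, on either strand.
Car9 (chr4:43506776-43507075): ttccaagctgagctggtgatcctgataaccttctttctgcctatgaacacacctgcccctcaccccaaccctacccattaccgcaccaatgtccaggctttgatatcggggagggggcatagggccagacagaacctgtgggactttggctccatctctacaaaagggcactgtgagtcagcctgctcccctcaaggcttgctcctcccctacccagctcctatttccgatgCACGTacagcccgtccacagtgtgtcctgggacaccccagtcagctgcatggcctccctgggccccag
Rcor2 (chr19:7267144-7267443): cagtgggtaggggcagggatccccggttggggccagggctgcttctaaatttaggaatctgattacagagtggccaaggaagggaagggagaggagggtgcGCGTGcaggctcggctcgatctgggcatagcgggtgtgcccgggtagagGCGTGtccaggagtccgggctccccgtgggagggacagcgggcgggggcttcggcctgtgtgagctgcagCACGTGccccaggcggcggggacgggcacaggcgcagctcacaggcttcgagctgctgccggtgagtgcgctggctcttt
Car9 held 1 ACGTG, on the minus strand with its first base at -18 from the start. Rcor2 held GCGTG at -149 and -100 and ACGTG on both strands at -30 and -29, which overlap as CACGTG. Of 30 HIF targets of the list with a promoter in the table, 26 held either core (86.7%), against 43.8% of 27025 promoters and 50.9% of the promoters of 15691 genes on the array. A match shows only that these letters stand in the window.

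Glycolytic genes were higher in smaller steps, and 4 were lower. Of 19 measured genes for glycolysis and for glucose and lactate transport, 11 were higher (57.9%) and 4 lower (21.1%) in hypoxia (median 0.85), and 18 of the 19 lay in the bright tercile, where 14.6% of probe sets were higher and 33.7% lower with a median of -0.31. With PBS 12 were higher and none lower (median 1.82), and the response was smaller under the drug for 11. Pgk1, phosphoglycerate kinase, had signals of 14.63, 14.81 and 14.38 in normoxia and 16.05, 16.12 and 16.12 in hypoxia (2.81-fold, log2 SE 0.20, adjusted p = 0.000161). With PBS it went from 15.06, 15.22 and 14.51 to 17.84, 18.04 and 17.69. The hypoxic groups did not overlap, with every array under doranidazole below every array under PBS. Ldha, the lactate dehydrogenase subunit that favors lactate, was 1.81-fold higher against 3.59-fold with PBS, a difference of response of -0.99 that was lost with array SDs and medians set equal and with hypoxia doranidazole replicates 1 and 2 left out together (adjusted p of up to 0.175). The main glucose transporter gene Slc2a1 was 3.54-fold higher against 7.16-fold, a difference that did not pass (adjusted p = 0.197).

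The 4 lower genes encode isoforms with other tissue patterns or kinetics. Ldhb, the lactate dehydrogenase subunit that favors pyruvate, went from 14.31, 14.03 and 14.56 to 12.11, 11.16 and 11.59 (6.41-fold lower, log2 SE 0.26, adjusted p = 1.14e-05). The muscle-type phosphofructokinase gene Pfkm went from 10.24, 10.23 and 10.05 to 8.27, 8.31 and 8.41, and the aldolase gene Aldoc from 13.18, 13.50 and 12.57 to 9.84, 8.93 and 9.82. None of these groups overlapped, which held in this direction for 20.4% of all probe sets. With PBS the log2 differences of Ldhb, Pfkm and Aldoc were -0.65, 0.29 and 0.96, and none passed. The neuronal glucose transporter gene Slc2a3 turned direction, with a log2 difference of -0.86 (adjusted p = 0.0364) under doranidazole and 3.10 (adjusted p = 8.05e-05) with PBS. The promoter of Pfkm, whose difference of response had the smallest p of the glycolytic genes with a sequence, is shown for the outermost of its 4 starts in the table, with ACGTG and GCGTG in capitals.
Pfkm (chr15:98092339-98092638, plus strand): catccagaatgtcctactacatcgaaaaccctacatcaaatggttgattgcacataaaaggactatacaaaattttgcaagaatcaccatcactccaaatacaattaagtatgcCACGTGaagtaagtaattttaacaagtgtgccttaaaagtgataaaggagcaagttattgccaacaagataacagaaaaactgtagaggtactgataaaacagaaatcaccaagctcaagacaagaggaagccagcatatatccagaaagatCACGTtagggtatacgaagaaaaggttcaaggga
It held ACGTG at -136 and -135 on opposite strands, overlapping as CACGTG, and at 17 on the minus strand. Of 18 promoters of the list, 13 held either core (72.2%).

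Of 10 oxygen sensor and HIF subunit genes, 3 were higher (Egln1, Egln2 and Egln3) and 3 lower in hypoxia. These were 30% each way, against 13.5% higher and 16.5% lower over all probe sets. Egln2, another prolyl hydroxylase gene, was 1.5-fold higher (adjusted p = 0.015), but not with array medians set equal or without normoxia doranidazole replicate 2 (adjusted p of up to 0.102). Hif1a, Arnt and Arnt2, which encode HIF subunits, were lower by 1.58-, 1.58- and 1.76-fold, and none of the 3 passed after quantile or loess normalization or without normoxia doranidazole replicate 2 or 3 or hypoxia doranidazole replicate 1. The list held 1 lower gene without replicate 1 of any of the other 3 groups or hypoxia doranidazole replicate 2. Of 17 oxygen-dependent histone and DNA demethylases, 4 were higher (23.5%; Kdm3a, Jmjd6, Tet3 and Kdm2a) and 2 lower (11.8%; Kdm2b and Kdm5c), with a median of 0.04. With PBS 6 were higher and none lower.

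The genes that rose most in hypoxia with doranidazole were mostly not hypoxia genes by their response with PBS. The 12 with the largest rise were Gadd45b, Tlcd2, Hspa1b, Gsta2, Ndrg1, 2610528A11Rik, Procr, Ier3, Adm, Hspa1a, Osgin1 and Junb, between 28.3- and 492-fold. Of these, Ndrg1, Ier3 and Adm also passed with PBS. Gadd45b, a stress gene that acts on p38 and JNK signaling, had signals of 4.68, 4.43 and 4.55 in normoxia and 13.97, 13.73 and 12.78 in hypoxia (log2 difference 8.94, SE 0.34, adjusted p = 1.24e-08). With PBS it was 3.66, 3.83 and 4.13 and 3.67, 4.96 and 4.55, so that the 3 hypoxic arrays with the drug were far above the 9 others. Tlcd2, a membrane protein gene, went from 4.30, 4.57 and 4.08 to 12.81, 12.81 and 13.95 (log2 difference 8.87, SE 0.27), and Procr, the protein C receptor gene, from 6.97, 6.91 and 7.30 to 12.14, 12.49 and 13.23 (5.57, SE 0.29). With PBS these genes differed by 0.77 and 0.23, which did not pass. Gadd45g of the same family as Gadd45b was 17.5-fold higher, whereas Gadd45a had a log2 difference of 0.72 (95% interval -0.90 to 2.34).

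**Figure D3:**
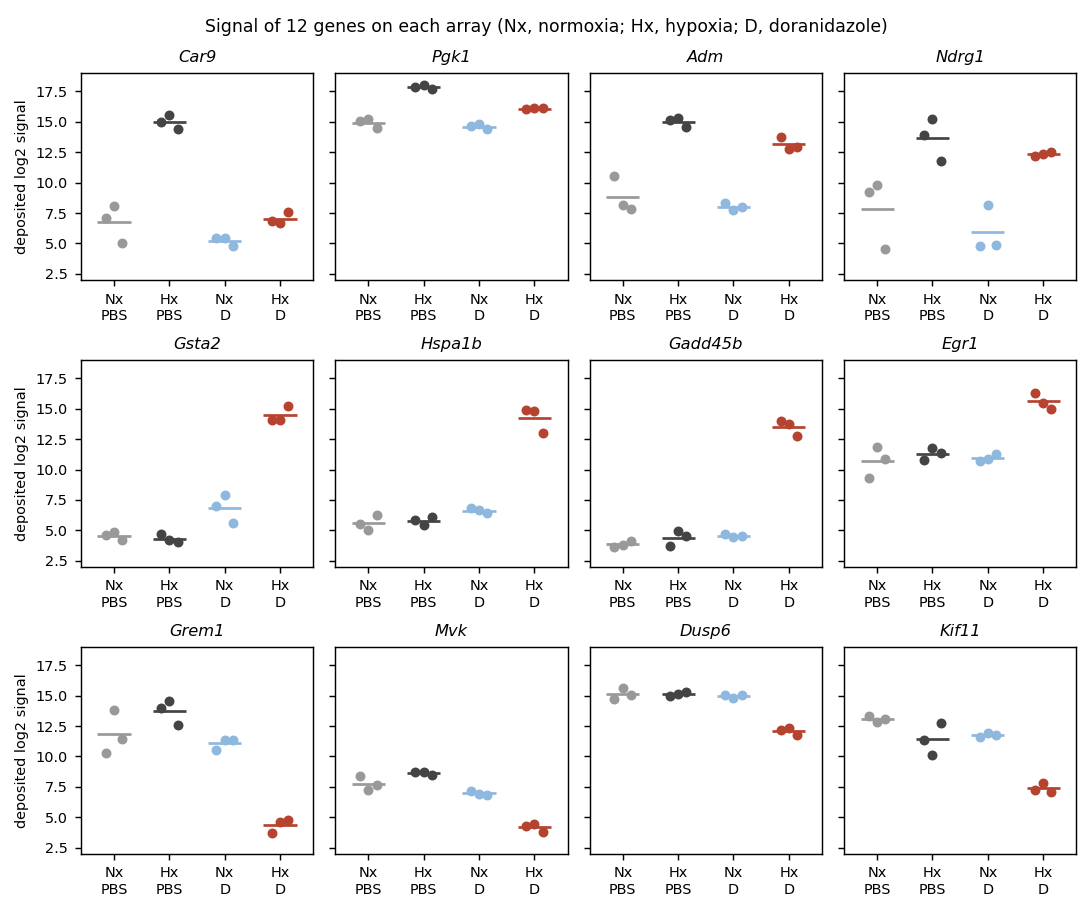
Deposited log2 signal (vertical axis) of 12 genes on each of the 12 arrays, with a line at the mean of each group of 3 (Nx, normoxia; Hx, hypoxia; D, doranidazole). Adm and Ndrg1 are high in hypoxia with and without the drug, Car9 is high in hypoxia with PBS alone, and Gsta2, Hspa1b and Gadd45b are high, and Grem1, Mvk, Dusp6 and Kif11 lowest, in hypoxia with doranidazole.

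Most target genes of NRF2 rose in hypoxia under doranidazole. Of 26 measured, 20 were higher and none lower in hypoxia (76.9%, median 1.94), and 24 of the 26 lay in the bright tercile, where 14.6% of probe sets were higher. With PBS none was higher or lower (median 0.23; limma, adjusted p), and the response was more positive under the drug for 11. Gsta2, a glutathione S-transferase gene, had signals of 7.02, 7.90 and 5.64 in normoxia and 14.10, 14.05 and 15.20 in hypoxia (193-fold, log2 SE 0.47, adjusted p = 4.09e-07), against 4.62, 4.84 and 4.24 and 4.68, 4.18 and 4.06 with PBS. Close paralogs of Gsta2 may share its probes. Gsta4, whose product conjugates lipid aldehydes, was already high in normoxia under the drug. Its signals were 12.03, 12.90 and 10.62 there and 15.68, 16.04 and 16.40 in hypoxia, whereas both groups with PBS lay between 5.82 and 8.19. Nqo1, a quinone reductase gene, had the same order, with 11.71, 11.95 and 10.29 in normoxia and 14.25, 13.75 and 14.75 in hypoxia (7.63-fold, adjusted p = 0.00679), and at most 7.60 with PBS. Its difference of response (3.28, adjusted p = 0.0432) was lost in 11 of 22 settings, among them those without any single array with doranidazole or without normoxia PBS replicate 1 or 2 (adjusted p of up to 0.109).

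Among the enzymes that recycle glutathione and thioredoxin, Gsr (glutathione reductase) was 8.2-fold and Txnrd1 (thioredoxin reductase) 5.69-fold higher (adjusted p = 3.23e-05 and 6.59e-06). Txnrd1 had signals of 15.16, 15.65 and 14.87 in normoxia and 17.55, 17.58 and 18.07 in hypoxia. Its groups did not overlap, which held in this direction for 21.3% of all probe sets. Hmox1, heme oxygenase 1, went from 13.69, 14.92 and 13.16 to 18.50, 18.16 and 18.39 (21.5-fold, log2 SE 0.75, adjusted p = 0.000774). It had a log2 difference of 2.36 with PBS (adjusted p = 0.139), and the difference of response did not pass (adjusted p = 0.235). Cat, catalase, was 2.23-fold higher (adjusted p = 0.0215), but not without normoxia doranidazole replicate 1 or 3 or hypoxia doranidazole replicate 3. The members that did not pass were Ephx1, Fth1, Me1, Pgd, Gstm1 and the cystine transporter gene Slc7a11, the last with a wide spread in normoxia (13.88, 15.74 and 11.53) and a log2 difference of 2.20 (adjusted p = 0.295). The motif TGACNNNGC, the core of the NRF2 site, stood in 5 of 20 promoters of the list (25%) and in 12.4% of all promoters, on either strand. The promoter of Gsta2 held none in this window.

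Most inducible chaperone genes were higher as well. Of 13 inducible heat shock genes, 8 were higher (61.5%, against 13.5% of all probe sets and 14.6% of the bright tercile, which holds 10 of them) and 1, Fkbp4, lower in hypoxia (median 1.24). With PBS none was higher and 2, Hspd1 and Hspe1, were lower, and the response was more positive under the drug for 8. Hspa1b, an inducible Hsp70 gene, went from 6.85, 6.64 and 6.39 to 14.92, 14.85 and 13.01 (199-fold, log2 SE 0.45, adjusted p = 2.82e-07). Its near-identical neighbor Hspa1a went from 6.90, 6.65 and 6.90 to 12.39, 12.55 and 10.71, and the arrays may not separate their transcripts. For both genes hypoxia replicate 3 was the lowest of its group and still above all 9 other arrays. Dnajb1, an Hsp40 partner of Hsp70, was 6.94-fold higher (adjusted p = 8.92e-05). The promoter of Hspa1b, which had the smallest p for the difference of response in the list, is shown with GAANNTTC, the inverted repeat read by HSF1, in capitals.
Hspa1b (chr17:34959189-34959488, minus strand): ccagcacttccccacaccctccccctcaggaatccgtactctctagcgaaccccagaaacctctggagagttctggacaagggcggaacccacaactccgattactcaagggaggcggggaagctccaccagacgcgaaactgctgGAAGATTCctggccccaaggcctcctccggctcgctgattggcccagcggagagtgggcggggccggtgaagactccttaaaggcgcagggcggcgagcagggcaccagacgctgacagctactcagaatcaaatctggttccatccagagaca
It held 1 such repeat, at -104. The repeat stood in 8 of 11 promoters of the list (72.7%) and in 7.96% of all promoters.

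Stress outputs of the endoplasmic reticulum did not move as a group. Of 18 ER chaperone and unfolded protein response genes, 3 were higher and 3 lower (median -0.06, and 0.23 after quantile normalization). These shares were 16.7% each way, against 13.5% higher and 16.5% lower over all probe sets. Dnajb9, an ER Hsp40, was 20.6-fold higher (signals 10.70, 11.19 and 10.99 in normoxia and 15.40, 15.60 and 14.99 in hypoxia, adjusted p = 1.3e-05), and Pdia6, a disulfide isomerase, 2.31-fold lower. Of 21 ATF4 and integrated stress response genes, 3 were higher and none lower. The share higher, 14.3%, was near the 13.5% of all probe sets, so nothing is read from the count. The 3 genes are given for their values. These were Ppp1r15a, which encodes the phosphatase subunit that ends this response (21.4-fold, adjusted p = 0.000286), the transcription factor gene Atf3 (14.5-fold, adjusted p = 0.000816) and Sesn2 (3.76-fold, adjusted p = 0.0413, up to 0.243 over all settings). Few genes of amino acid uptake and charging passed. Of 13 transporters 1 was higher (7.69%), Slc38a2 (1.73-fold, adjusted p of up to 0.316 over all settings), and none lower. The median of the transporters was 0.79, against 0.10 over all probe sets. Of 18 aminoacyl-tRNA synthetases 2 were higher and 2 lower (11.1% each way, median -0.37). Over all probe sets 13.5% were higher and 16.5% lower, and nothing is read from these counts. Several of these genes were high in normoxia doranidazole replicate 2, as with Slc1a4 (9.53, 12.16 and 8.47 in normoxia, 11.79, 11.64 and 12.18 in hypoxia) and Ddit3 (8.39, 11.70 and 8.36 and 13.20, 12.70 and 12.59).

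Immediate early genes, which growth factors and stress induce within minutes, were higher after these 24 h. Of 20, 14 were higher and 1, Jun, lower in hypoxia (median 2.10), where 13.5% of all probe sets were higher and 16.5% lower. With PBS 2 were higher and none lower. Junb had signals of 6.12, 6.82 and 6.16 in normoxia and 11.17, 11.41 and 10.99 in hypoxia (28.3-fold, log2 SE 0.21, adjusted p = 4.51e-08), and Egr2, a zinc finger factor gene, 5.59, 5.24 and 5.70 and 9.39, 9.32 and 9.59 (15.2-fold). With PBS their log2 differences were 0.17 and 0.60, which did not pass. Maff, a small Maf gene, was 14.9-fold higher with the drug and 3.4-fold with PBS, and both passed. Ier3 was 38.5-fold higher with the drug (10.29, 9.94 and 9.39 in normoxia, 15.58, 14.96 and 14.87 in hypoxia) and 15.8-fold with PBS, a difference of response that did not pass (adjusted p = 0.304).

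Most genes of a list of RAS-ERK output and feedback genes were lower in these cells, which overexpress H-Ras V12. The immediate early genes above, which growth factors also induce, were mostly higher, so the statement holds for this list only. Of 13 output and feedback genes of the RAS-ERK pathway, 8 were lower and 2 higher (median -1.87, against -0.31 in the bright tercile, which holds 12 of the 13), and with PBS none passed (limma; median 0.11). The response was more negative under the drug for 8. The feedback inhibitor gene Spry2 had signals of 12.24, 12.26 and 11.99 in normoxia and 8.97, 9.21 and 9.25 in hypoxia (8.12-fold lower, log2 SE 0.18, adjusted p = 3.21e-07). The ERK phosphatase gene Dusp6 went from 15.08, 14.80 and 15.06 to 12.18, 12.33 and 11.79 (7.35-fold lower), and the ETS factor gene Etv1 from 14.35, 14.33 and 13.83 to 10.91, 10.82 and 11.35 (8.84-fold lower). With PBS, the signals of Dusp6 at both oxygen levels lay between 14.74 and 15.60. Spry1, Spry4, Spred1, Etv4 and Etv5 were lower as well, while Dusp5 and Epha2 were higher.

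**Figure D4:**
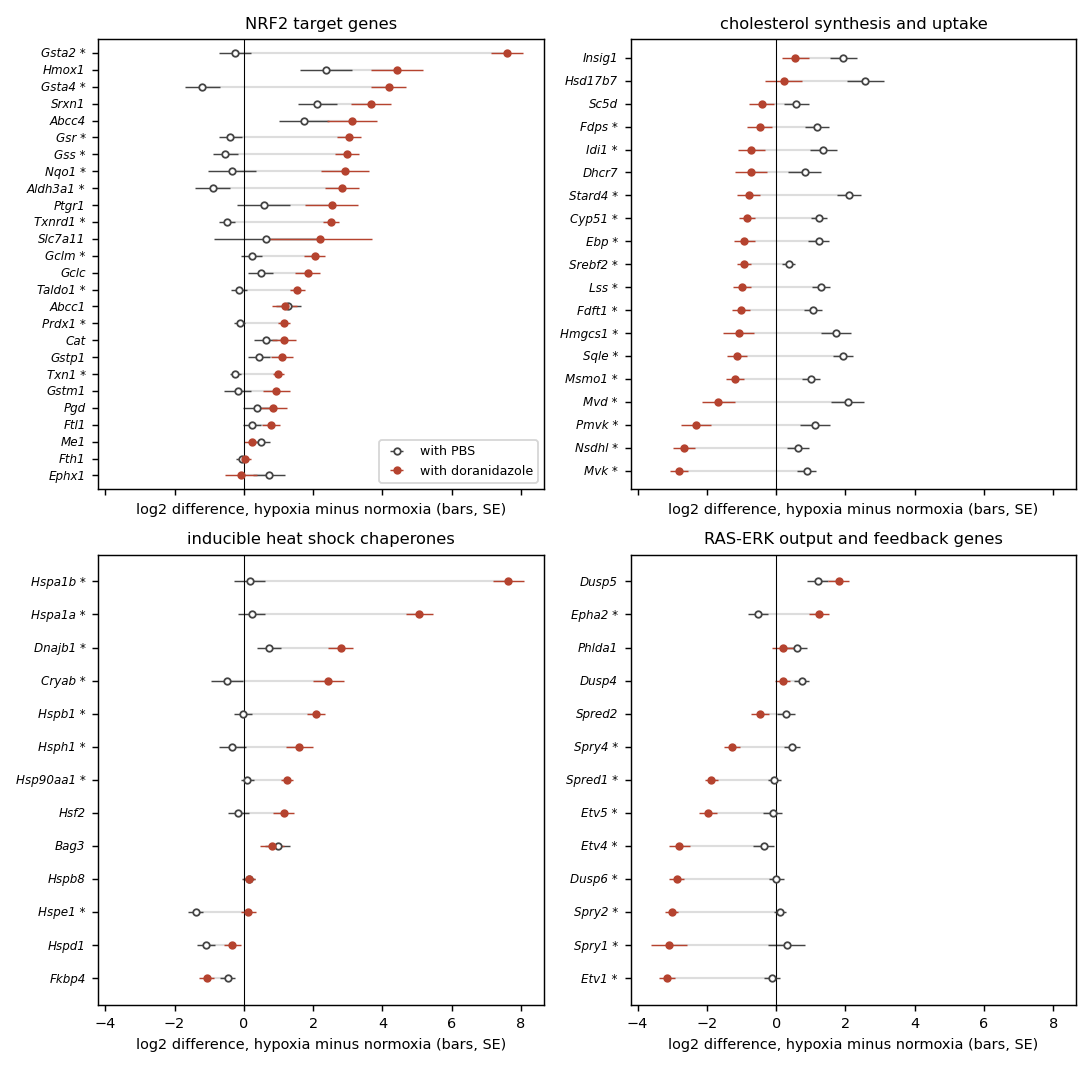
Log2 difference between hypoxia and normoxia (horizontal axis; bars, SE; 3 arrays per group) with PBS (open) and with doranidazole (filled) for the measured genes of 4 lists; an asterisk marks genes whose response differed at an adjusted p under 0.05. Filled points lie to the right of open ones for most NRF2 targets and heat shock chaperones and to the left for cholesterol genes and for most RAS-ERK genes.

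Most mitotic and histone genes were lower. Of 35 genes of the mitotic spindle, kinetochore and cyclins, 32 were lower in hypoxia and none higher (91.4%, against 33.7% of the bright tercile, which holds 31 of them), with a median of -2.62. With PBS 3 were lower and the median was -1.35. The response differed for 6 of the 35, 5 with a more negative and 1 with a more positive value. Kif11, the kinesin that keeps spindle poles apart, went from 11.61, 11.90 and 11.79 to 7.26, 7.79 and 7.07 (21-fold lower, log2 SE 0.46, adjusted p = 2.07e-05), and with PBS from 13.35, 12.87 and 13.09 to 11.32, 10.15 and 12.71. The cell cycle repressor gene E2f8 was 25.9-fold and the checkpoint kinase gene Ttk 18-fold lower. Of 32 replication and licensing genes, 13 were lower (40.6%, against 33.7% of the bright tercile, which holds 22) and 1, Cdt1, higher (median -0.87, against -1.41 with PBS). With PBS 3 of them were lower. The response was more positive under the drug for 3 and more negative for none. Pole, the leading-strand polymerase, was 3.28-fold lower, and the clamp loader genes Rfc2 and Rfc4 5.24- and 4.84-fold. Of 20 replication-dependent histone genes, 16 were lower and 1 higher (median -2.78), with H3c14 and H3c13 at 11- and 10.2-fold and H1f2 at 7.06-fold, where near-identical copies may share probes. With PBS none passed (limma; median -1.51), but every log2 difference was negative (at most -0.19). The response was more negative under the drug for 1 of the 20 and more positive for 1. For the other 18 a different response was not shown. H3c14 had signals of 16.97, 17.23 and 17.51 in normoxia and 15.50, 14.59 and 17.20 in hypoxia with PBS, and hypoxia PBS replicate 3 lay within the normoxic range.

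Cholesterol synthesis genes were lower in hypoxia with doranidazole, and some of them were higher in hypoxia with PBS. Of 19 genes of cholesterol synthesis and uptake, 11 were lower and none higher under the drug (57.9%, median -0.93). In the bright tercile, which holds 18 of them, 33.7% of probe sets were lower and the median was -0.31. With PBS 7 were higher and none lower (median 1.23), and the response was more negative under the drug for 15. The count of lower genes was 7 after quantile or loess normalization and without normoxia doranidazole replicate 2. Mvk, mevalonate kinase, had signals of 7.14, 6.91 and 6.85 in normoxia and 4.27, 4.43 and 3.78 in hypoxia (6.99-fold lower, log2 SE 0.27, adjusted p = 8.99e-06), against 8.37, 7.23 and 7.67 and 8.68, 8.76 and 8.46 with PBS. Its arrays in normoxia with the drug already lay below all those with PBS. Nsdhl and Pmvk, a sterol dehydrogenase and phosphomevalonate kinase, were 6.31- and 4.97-fold lower. The SREBP motif TCACNCCAC stood in 1 of 15 promoters of the list and 1.22% of all, and not in that of Mvk. Of 13 fatty acid genes, 11 of them in the bright tercile, 6 were lower (46.2%) and none higher. Among the lower ones were the desaturase genes Scd1 (4.19-fold, 16.81, 16.91 and 16.66 in normoxia and 14.99, 14.78 and 14.42 in hypoxia), Fads2 (4.19-fold) and Fads1 (3.36-fold). These enzymes use molecular oxygen. With PBS their log2 differences were 0.48, 0.36 and 0.01, and none passed.

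Nuclear genes for mitochondrial respiration were lower, with list medians of -0.82 to -0.85. Of 35 complex I subunits, 26 were lower and none higher (74.3%, median -0.84), of 4 complex II subunits 3 were lower, and of 35 subunits of complexes III, IV and V 20 were lower (57.1%, median -0.82). Of 23 genes of the tricarboxylic acid cycle and pyruvate entry, 16 were lower and 1, the HIF target Pdk1, higher. The bright tercile, in which 33.7% were lower with a median of -0.31, holds 30, 4, 32 and 16 of these genes. With PBS the medians were -0.44, -0.43, -0.34 and -0.39, and none of these genes was lower except 1 of the tricarboxylic acid cycle list, while 1 of complex I and 2 of that list were higher. In the same order, the response was more negative under the drug for 4, 1, 3 and 5 genes and more positive for none. For the other members a different response was not shown. The count of lower complex I subunits was 17 after loess normalization (20 after quantile normalization), and that of complexes III to V was 13 with array SDs and medians set equal. Ndufs1, the largest core subunit of complex I, went from 11.23, 11.12 and 11.20 to 8.96, 9.15 and 8.91 (4.52-fold lower, log2 SE 0.20, adjusted p = 8.22e-06). Sdha, the flavoprotein of succinate dehydrogenase, had signals of 10.49, 10.45 and 10.50 in normoxia and 8.38, 7.82 and 9.57 in hypoxia, with hypoxia replicate 3 nearest to normoxia (3.71-fold lower, adjusted p = 0.00102). Sdhb was 1.92-fold and Sdhc 1.64-fold lower, Sdhc not after quantile or loess normalization, and Sdhd had a log2 difference of -0.63 that did not pass (adjusted p = 0.115). Idh2, mitochondrial isocitrate dehydrogenase, was 4.5-fold, Dlat of the pyruvate dehydrogenase complex 2.7-fold, and the ATP synthase gene Atp5d 2.69-fold lower. Mitochondrial ribosomal proteins were lower for 25 and higher for 1 of 47, with Mrpl17 2.87-fold lower, but for 11 after quantile normalization and for 15 and 16 without normoxia doranidazole replicate 2 or hypoxia doranidazole replicate 1. Their median of -0.64 was close to the -0.58 with PBS. Cytosolic ribosomal proteins, all 43 in the bright tercile, had a median of -0.01, against -0.31 in that tercile, with 1 higher and 2 lower, but 12 higher with array SDs and medians set equal.

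Part of the lysosomal, autophagy and proteasome genes was higher. Of 24 lysosomal genes, 14 were higher and 2 lower (median 0.61), of 17 autophagy genes 8 and 1 (median 0.71), and of 30 proteasome subunits 10 and none (median 0.35), while with PBS none of the 3 lists held a gene that passed (limma). The bright tercile, with 14.6% higher, holds 22, 12 and 30 of them. Atp6v1h, a subunit of the lysosomal proton pump, went from 10.05, 10.59 and 10.60 to 12.95, 13.41 and 13.17 (6.77-fold, log2 SE 0.19, adjusted p = 9.37e-07), and Gla, alpha-galactosidase A, from 10.07, 10.58 and 10.06 to 13.96, 13.08 and 14.50 (12.2-fold). Gabarapl1 of the ATG8 family was 11.8-fold, Atg14 of the autophagy initiation complex 7.85-fold and the kinase gene Ulk1 5.54-fold higher. Psmb3, a subunit of the proteasome core, was 2.22-fold higher and had a log2 difference of -0.69 with PBS, so that the response differed by 1.84 (adjusted p = 0.000625). The number of higher proteasome genes was 16 after quantile and 18 after loess normalization, 5 with array medians set equal, 5 without normoxia doranidazole replicate 1 or 3, and 6 without replicate 2 of either doranidazole group or replicate 1 of either PBS group. Lysosomal genes numbered 9 without normoxia doranidazole replicate 3 or hypoxia doranidazole replicate 3.

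The genes that fell most under doranidazole included a secreted signaling inhibitor, a serotonin receptor and several adhesion receptors. The 12 with the largest fall were Grem1, Syt4, Htr1b, Adgrl3, Marchf4, Id3, St8sia1, Flrt2, Mcam, Pipox, Loxl3 and Nlgn1, between 38.9- and 106-fold, and of these Loxl3 was lower with PBS too (2.89-fold). Grem1, a secreted inhibitor of bone morphogenetic proteins (BMPs), had signals of 10.51, 11.38 and 11.36 in normoxia and 3.66, 4.58 and 4.80 in hypoxia (log2 difference -6.73, SE 0.72, adjusted p = 2.48e-05), against 10.32, 13.81 and 11.41 and 13.95, 14.57 and 12.61 with PBS. Id3, a BMP target that blocks differentiation factors, went from 13.34, 13.26 and 13.33 to 6.88, 8.01 and 7.87 (52.8-fold lower). Htr1b, a serotonin receptor gene, went from 13.79, 13.84 and 14.40 to 7.38, 7.41 and 8.58, and St8sia1, which makes ganglioside GD3, from 13.96, 13.69 and 13.48 to 7.59, 8.08 and 8.45. The adhesion receptor genes Adgrl3, Flrt2 and Nlgn1 were 65.2-, 49.6- and 38.9-fold lower. Groups that do not overlap, found in this direction for 20.4% of all probe sets, were a condition for naming these 12 genes, so nothing is read from it.

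Lower genes made up 50% of the stem cell list, 44.8% of the matrix list and 29.2% of the list of BMP, IGF and cytokine genes, against 16.5% of all probe sets and 33.7% of the bright tercile, which holds 13 of 22, 14 of 29 and 10 of 24 of them. Of 22 neural and glioma stem cell genes, 11 were lower and 1, Hes5, higher (median -0.81), whereas with PBS 4 were higher and none lower. Sox2, the stem cell factor gene, went from 14.31, 14.69 and 14.32 to 10.03, 11.43 and 11.14 (11.9-fold lower, adjusted p = 5.46e-06), and Fabp7, a radial glia gene, from 9.32, 8.66 and 8.74 to 4.52, 5.30 and 4.27 (18.5-fold lower). Nes had a log2 difference of 0.59 (95% interval -0.38 to 1.55). Igfbp5, which encodes a binding protein for insulin-like growth factors, had the most negative difference of response of all named genes. Its signals were 10.04, 10.28 and 9.98 in normoxia and 6.75, 5.36 and 5.75 in hypoxia with doranidazole (17.7-fold lower, log2 SE 0.46), and 9.02, 9.04 and 9.14 and 15.04, 15.22 and 13.17 with PBS (42.5-fold higher). Both directions passed (adjusted p = 3.07e-05 and 5.68e-05), and the 4 groups did not overlap. Igfbp3 was 7.02-fold lower with the drug. Of the 24 BMP, IGF and cytokine genes of that list, 7 were lower and 2 higher. Of 29 collagen and matrix genes, 13 were lower and 2 higher, among them the collagen genes Col3a1 (16.4-fold) and Col18a1 (4.34-fold) and the protease gene Adamts9 (26.6-fold, 11.62, 11.33 and 10.41 in normoxia and 6.77, 6.25 and 6.15 in hypoxia). Npas3, a neural transcription factor gene, was 21.6-fold lower, with a difference of response of -5.71 (adjusted p = 9.77e-06).

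**Figure D5:**
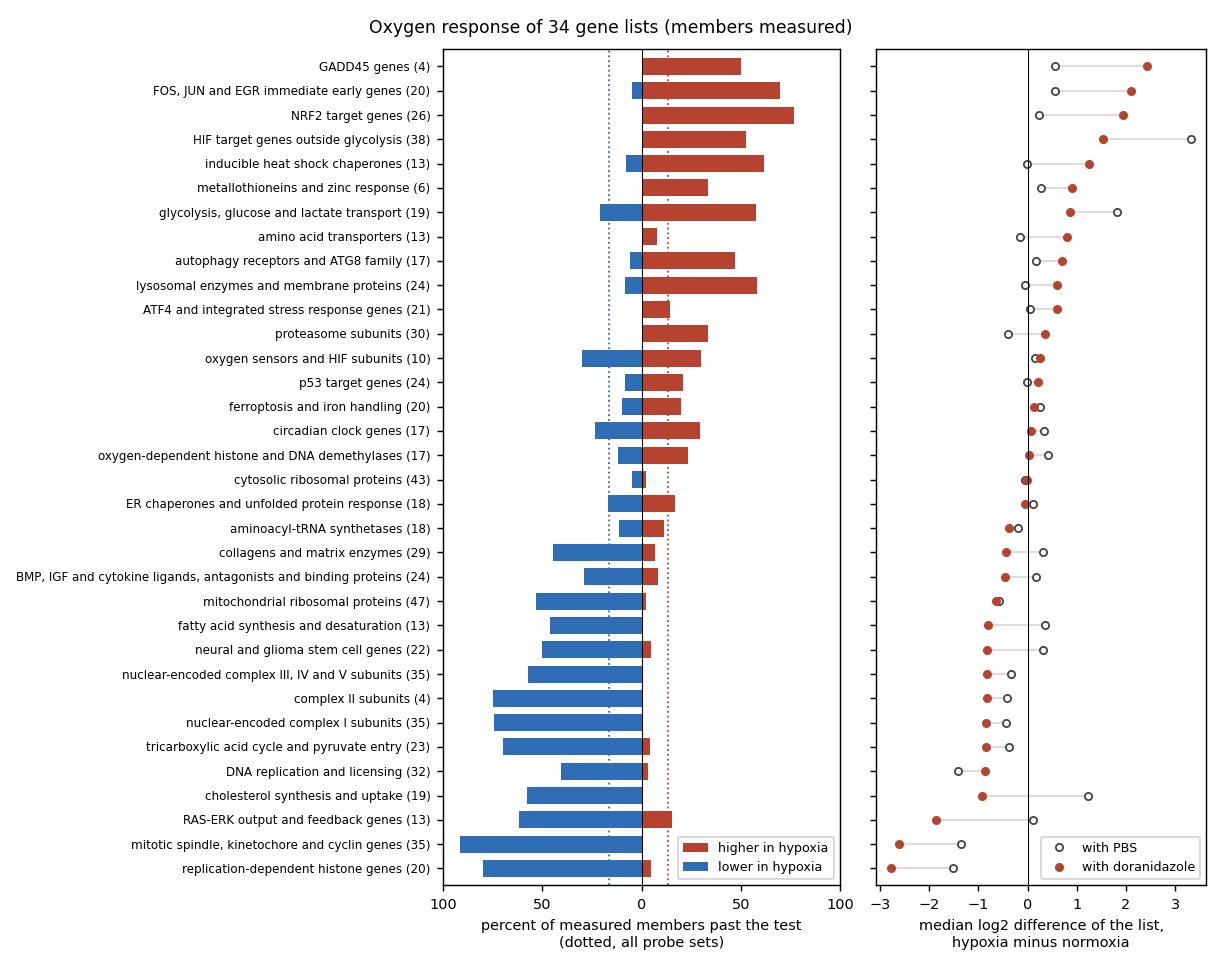
For 34 gene lists (number of measured members in brackets), the left panel plots the percent of members past the test that were higher or lower in hypoxia with doranidazole, with dotted lines at 13.5% and 16.5% for all probe sets, and the right panel plots the median log2 difference with PBS (open) and with doranidazole (filled). Lists are ordered by the median with doranidazole, from GADD45 (2.42) and immediate early genes (2.10) at the top to mitotic (-2.62) and histone genes (-2.78) at the bottom, and the medians of cholesterol genes lie on opposite sides of 0.

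The p53, ferroptosis, metallothionein and clock lists are given beside shares of 13.5% higher and 16.5% lower over all probe sets. Of 24 p53 target genes, 5 were higher (20.8%) and 2 lower (8.33%, median 0.21), with Plk2, a stress kinase gene, 12.9-fold and Btg2 5.43-fold higher. Plk2 was also higher with PBS (4.85-fold). Of 20 genes of ferroptosis and iron handling, 4 were higher and 2 lower. The lower ones place polyunsaturated fatty acids in membrane lipids, Acsl4 (13.54, 13.48 and 13.59 in normoxia, 11.64, 11.62 and 11.36 in hypoxia, 3.98-fold lower, adjusted p = 8.18e-06) and Lpcat3 (2.98-fold lower). Acsl4 was 1.89-fold higher in hypoxia with PBS (adjusted p = 0.025). Steap3, a ferrireductase gene, had a log2 difference of 0.07 (95% interval -1.27 to 1.41). Of 6 metallothionein and zinc genes, Mtf1, the zinc-sensing factor, and Mt3 were higher by 2.57- and 3.27-fold. Of 17 clock genes, 5 were higher (29.4%) and 4 lower (23.5%), with Rorb 8.19-fold, Per3 3.43-fold and Dbp 7.53-fold lower. The number of higher clock genes was 1 with array medians set equal and without normoxia doranidazole replicate 1 or 3, 2 without any single array of hypoxia with doranidazole, and 3 without normoxia doranidazole replicate 2 or replicate 1 of either PBS group. The 4 higher ferroptosis genes became 2 without normoxia doranidazole replicate 1 or 3 or hypoxia doranidazole replicate 1 or 2. Several counts of 3 or fewer, here and in the lists above, moved by over 1.5 times when some single arrays were left out. Others did not move, among them the 2 higher genes of the RAS-ERK and of the GADD45 list. The 1 lower gene of the immediate early, heat shock and autophagy lists did not move either.

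Set against the response with PBS, the overlap was partial and went by direction. The 2 comparisons share no arrays. Over all 22206 probe sets, Pearson's r between the responses was 0.237 and Spearman's rho 0.199, given as a description because probe sets are no independent replicates. Of the 324 probe sets that were higher in hypoxia with PBS, 89 were higher under doranidazole (27.5%, against 13.5% of all), 71 were lower (21.9%, against 16.5%) and 164 did not pass. Of the 115 that were lower with PBS, 69 were lower under doranidazole (60.0%) and 6 higher. The first set had a median log2 difference of 1.66 with PBS, on which it was chosen, and 0.17 with doranidazole, and the second -1.22 and -0.87. Seen from the other side, 89 of the 3002 probe sets that were higher and 69 of the 3654 that were lower under the drug had the same call with PBS, and 6 and 71 had the opposite one.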

How the data were processed

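RNA of 12 cultures was measured on Clariom S Mouse arrays. The deposited values are log2 signals per probe set, which the authors computed with Transcriptome Analysis Console. For probe summarization and array scaling, settings are not given in the sources used here. Values were equal in both deposited tables after rows were matched. All 12 arrays, grouped by their labels, entered 1 limma fit (version 3.58.1, R 4.3.3) without further normalization, filter or block, with moderated two-sided tests and Benjamini-Hochberg adjustment over all 22206 probe sets, and a result passed at an adjusted p under 0.05. The 2634 probe sets without a symbol were tested but not named. Fold changes are antilogs of log2 differences. The script was tested on simulated data.

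The genes and lists were chosen with earlier results of these data known, and 729 of 794 list symbols matched. Named genes were the 12 with the largest rise and the 12 with the largest fall whose groups did not overlap, the 8 most different in response each way, the 3 smallest p-values of every list and a set of hypoxia and drug response genes, each by the probe set with the highest mean. Genes outside this rule, such as Aldoc, Slc2a3, Rcor2, Stc1, Bhlhe40, Hif1a, Arnt, Arnt2, Flt1, Ddit3 and Slc7a11, were named after their values were seen. Alternatives were other normalizations, filters, priors, weights, blocks, a left-out array and the threshold of the study's methods (over 2-fold, unadjusted p under 0.05). Promoters are from RefSeq (GRCm38.p6).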

Additional observations from a re-analysis of the deposited data

Results flagged for a closer look

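For 3003 probe sets the response to hypoxia differed between doranidazole and PBS in a test of the difference itself, and these include 22 of the genes described above, each flagged for that reason. The difference of response on the log2 scale, doranidazole minus PBS, was positive for Gadd45b (8.42), Tlcd2 (8.10), Gsta2 (7.86), Hspa1b (7.46), Gsta4 (5.38), Procr (5.33), 2610528A11Rik (5.32) and Osgin1 (5.18), and for the drug response genes Nqo1 (3.28) and Txnrd1 (2.99). It was negative for Igfbp5 (-9.56), Grem1 (-8.60), Adgrl3 (-6.49), Car9 (-6.41), Nlgn1 (-5.95), Adamts9 (-5.91), Htr1b (-5.85) and Npas3 (-5.71). Among hypoxia markers and succinate dehydrogenase genes it was also negative for Egln3 (-2.25), Pgk1 (-1.44), Ldha (-0.99) and Sdha (-1.54). The values of Egln3, Ldha, Nqo1 and Sdha did not pass in some settings, with adjusted p-values of up to 0.189, 0.175, 0.109 and 0.283 in limma. No group held enough arrays for a search for outlying samples.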

How the results depend on the processing

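Results were recomputed in 24 settings, of which 12 left out 1 array. Of 123 named genes past the threshold with doranidazole, 105 passed in all 24, 18 did not in at least 1, and none changed sign. With hypoxia doranidazole replicates 1 and 2 left out together, which was chosen after seeing the data, 1637 probe sets were higher and 1929 lower. With single arrays left out, 1942 to 3548 were higher and 2902 to 4124 lower, 151 to 1432 changed with PBS, and 2182 to 4364 differed in response. With PBS, 2273 changed with array weights, 115 with only 2 groups in the fit, and 1051 at over 2-fold and an unadjusted p under 0.05, where 1457 were higher with doranidazole. Higher calls made up 45.1% of all calls, 33.4% with array medians set equal (2061 higher, 4111 lower) and 51.6% after quantile normalization. Of the differences of response 37.1% were positive, and 49.0% after quantile normalization (1432 positive, 1492 negative). The main fit used no pairing by replicate number. Within the comparisons, deviations of arrays with the same number correlated at 0.14, 0.03 and -0.01 with doranidazole and -0.02, 0.26 and 0.36 with PBS. Between the normoxic groups these correlations were 0.20, 0.33 and 0.33. Over all pairs of groups 10 of 18 exceeded 0.1, and in 9 of 18 an array correlated best with its own number. This is a hint of pairing from the data and not from the design. With the replicate block over 12 arrays, 3024 were higher and 3831 lower with doranidazole, 564 changed with PBS and 1186 and 2103 differed in response, and with the replicate block in 2 groups 2138 were higher and 3403 lower, and 343 changed with PBS. The causes were not tested. With 3 arrays a group, the number of arrays limits the precision.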

Other observations

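Several genes went against the direction of their list in hypoxia with doranidazole. Hes5, a Notch target gene and the only higher one of 22 stem cell genes, had log2 signals of 5.88, 5.52 and 5.99 in normoxia and 7.00, 6.35 and 6.29 in hypoxia (1.68-fold, adjusted p = 0.032, limma), and it did not pass without normoxia doranidazole replicate 1 or 2 or hypoxia doranidazole replicate 1. The BMP antagonist genes Nog (noggin) and Chrd (chordin) were 1.5- and 1.85-fold higher (adjusted p = 0.041 and 0.00928), whereas the antagonist gene Grem1 was lower. Slc16a1, a lactate transporter gene, was 2.19-fold higher and was the only glycolytic gene with a more positive response than with PBS (difference 1.09, SE 0.32, adjusted p = 0.0386). Cdt1, a replication licensing gene, had signals of 10.86, 10.99 and 10.80 in normoxia and 12.52, 12.17 and 11.89 in hypoxia (2.48-fold higher, adjusted p = 0.0142), while Mrps9, a mitochondrial ribosomal gene, was 1.51-fold higher. Jun, the only immediate early gene that was lower, went from 12.98, 12.81 and 13.09 to 12.18, 12.29 and 11.54 (1.95-fold, adjusted p = 0.0119). These genes were named after their values were seen.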
